A study of Mus musculus with 28 samples.

Results

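Of the 28 single Müller glial cells (MGCs) profiled in the study, 10 came from rhodopsin knockout (Rhod-ko) retinas, and these 10 were divided by whether they held message for the gliosis gene Gfap. A cell was selected on its highest Gfap probe set: 5 cells at or above a signal of 2000 were Gfap-on, and 5 under it were Gfap-off. Rhod-ko mice lack the rod-specific rhodopsin gene in every cell, are listed as C57/BL6, and lose first rods and then cones. At 8 weeks, in the phase of rod death, cells 2, 3, 7 and 8 were Gfap-on and cell 1 was Gfap-off, while at 25 weeks, in the phase of cone death, A3 was Gfap-on and A1, A2, A4 and A5 were Gfap-off. The other cells of the series were 5 from adult wild-type (WT) C57/BL6 mice, labelled as older than 25 weeks, 3 from congenic FVB mice at P13, 5 from rd1 mice on FVB at P13 and 5 from rd1 mice at 5 weeks, where rd1 is a mutation of the rod phosphodiesterase subunit Pde6b. Each cell was picked by its shape from papain-dissociated retina, and its cDNA was amplified by PCR and hybridized to 1 array. No animal was named for any cell, so each group stands as 1 sample of several cells, no test between groups was run, and the spread given throughout is the range over cells.

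Müller glia are the radial glia that span the whole retina, recycle glutamate and potassium and support the photoreceptors. Gfap encodes an intermediate filament protein that astrocytes make at all times and that mouse MGCs make mainly after injury or photoreceptor loss, together with a broader reaction called gliosis. In glia its promoter is known to respond to cytokines that act through the receptor subunit gp130 and the transcription factor Stat3.

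Gfap was abundant in 5 Rhod-ko MGCs and nearly absent in the rest but A5, which lay between. Its highest probe set read 83415, 20038, 66692 and 79269 in the Gfap-on cells of 8 weeks against 69 in cell 1. At 25 weeks it read 29918 in A3 against 78, 42, 30 and 1803 in A1, A2, A4 and A5. The values just inside and just outside the limit were thus 20038 in cell 3 and 1803 in A5, and A5 alone among the Gfap-off cells lay above 100. Of the 3 Gfap probe sets, a pair followed this pattern and the third stayed under 2000 in all 10 cells, at most 1696 in cell 2. In the 5 WT cells the highest probe set read between 58 and 4047, and the only WT cell over 2000 passed through the third probe set, with its other Gfap probe sets at 36 and 39. Because these values chose the groups, the Gfap difference is a description and supports nothing.

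**Figure D1:**
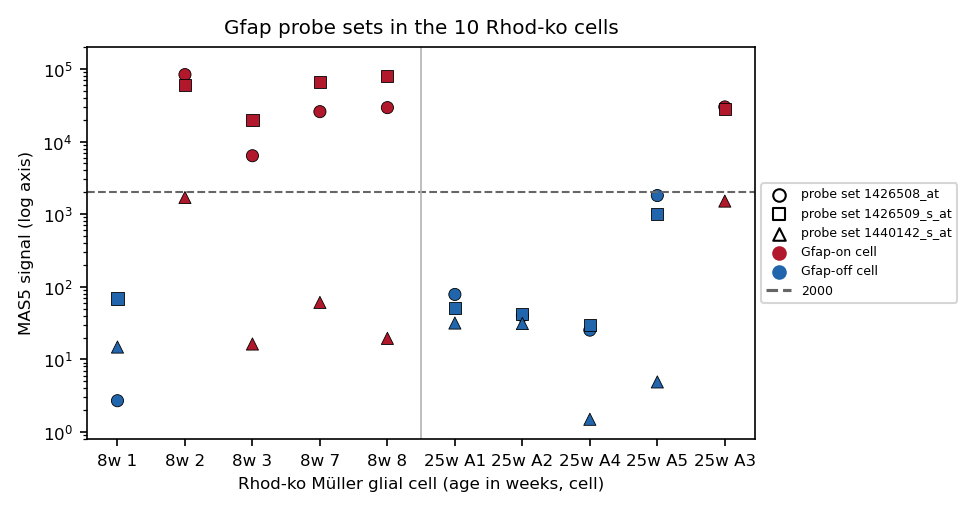
MAS5 signal (log axis) of the 3 Gfap probe sets in each of the 10 Rhod-ko cells, red for Gfap-on and blue for Gfap-off, with the dashed line at 2000. The 5 Gfap-on cells lie at 20038 or above on their highest probe set, and A5, at 1803, is the nearest cell below the line.

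Age and Gfap status were tied, since 4 of 5 Gfap-on cells were 8 weeks old and 4 of 5 Gfap-off cells 25 weeks old. The arrays of the 2 ages also differed in quality measures: the 3' to 5' signal ratio of Gapdh, which grows as cDNA shortens, was 3.95 to 18.2 at 8 weeks and 1.17 to 2.05 at 25 weeks, and the 100 strongest probe sets held 22.2 to 35.7% of the signal at 8 weeks and 9.40 to 10.5% at 25 weeks. A cell had 1970 to 2363 genes on at 8 weeks and 2670 to 3123 at 25 weeks. Pearson r between arrays (log2, floored at 100, a description over shared probe sets) was 0.54 to 0.65 within an age and 0.40 to 0.54 across ages, whether or not Gfap status matched. A pooled comparison therefore cannot be told apart from age and array quality, and cell 1 was read against the other cells of 8 weeks and A3 against the other cells of 25 weeks. Those comparisons rest on 1 Gfap-off and 1 Gfap-on cell, and within 8 weeks cell 1 also had the lowest Gapdh ratio, 3.95 against 6.17 to 18.2.

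Gene values are MAS5 signals on a linear scale, with the highest probe set of a gene taken in each cell. Signals under 1000 were set to 1000 before log2, group medians were then subtracted, with a call made from 1 (2-fold) in either direction. A signal of 2000 or more counted as on. Within 8 weeks 780 of 18194 genes were higher (4.29%) and 1251 lower (6.88%) in the Gfap-on cells than in cell 1. Within 25 weeks 1685 genes were higher (9.26%) and 898 lower (4.94%) in A3 than in the Gfap-off cells. The comparisons share no cell, and 184 genes were higher in both (1.01%), which is 23.6% of the genes higher at 8 weeks and 10.9% of those higher at 25 weeks. Lower in both were 176 genes (0.967%), 14.1% and 19.6% of the respective lists. Opposite calls were made for 118 genes higher at 8 weeks and lower at 25 weeks (0.649%) and 265 the other way (1.46%). These are 15.1% of the genes higher at 8 weeks and 21.2% of those lower at 8 weeks. Genes lower at 8 weeks were thus more often higher than lower at 25 weeks. In 8391 genes (46.1%) no Rhod-ko cell reached 1000, and these could not differ.

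**Figure D2:**
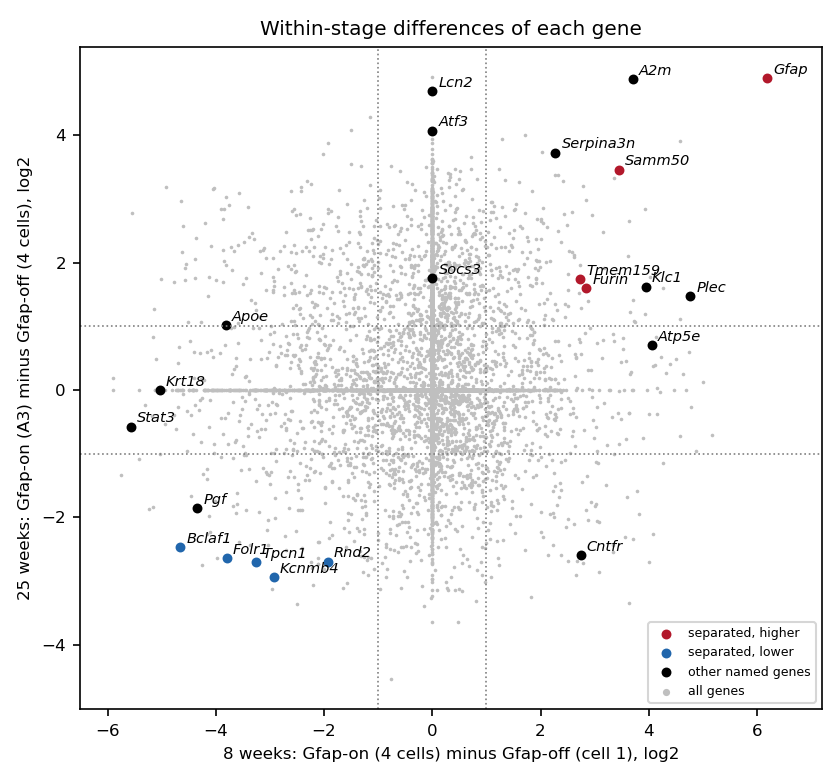
Each point is 1 of 18194 genes, with its Gfap-on minus Gfap-off difference (log2) at 8 weeks on the x axis and at 25 weeks on the y axis, and dotted lines at 1 and -1. Gfap, Samm50, Tmem159 and Furin lie in the upper right, Folr1, Tpcn1, Kcnmb4, Bclaf1 and Rnd2 in the lower left, and Cntfr (2.74 and -2.59) and Apoe (-3.81 and 1.02) in the quadrants where the ages oppose each other.

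A stricter reading kept only genes whose Gfap-on and Gfap-off cells lay at least 2-fold apart, with no overlap, within each age. Higher by this reading were 4 genes (0.022% of 18194), Gfap itself, which was fixed by the grouping, and Samm50, Tmem159 and Furin. Lower were 12 genes (0.066%), Folr1, Tpcn1, Kcnmb4, Txndc9, Popdc3, Rnd2, Tpd52, Bclaf1, Clk1, Olfm2, Opa1 and Celf2. With any gap in place of 2-fold, 61 genes were separated upward (0.335%) and 90 downward (0.495%). The reading hangs on A5: with a Gfap threshold of 1000, which makes A5 Gfap-on, none of the 4 genes and 1 of the 12 (Txndc9) remained. Furin also dropped out with a floor of 2000 or under quantile normalization, each of which kept 7 of the 12.

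The stretches upstream of Gfap and of the 2 other separated genes with a RefSeq window and a higher signal are shown because the genes share a pattern across cells. They run from 250 bases before the transcription start (GRCm38.p6, RefSeq), Gfap at chr11:102897194-102897450 on the minus strand and continued 7 bases past its start, Samm50 at chr15:84191990-84192239 on the plus strand, and Furin at chr7:80405437-80405686 on the minus strand, the more upstream of its 2 listed starts. Capitals mark TTCNNNGAA, the letters that Stat-family factors are known to bind.
Gfap: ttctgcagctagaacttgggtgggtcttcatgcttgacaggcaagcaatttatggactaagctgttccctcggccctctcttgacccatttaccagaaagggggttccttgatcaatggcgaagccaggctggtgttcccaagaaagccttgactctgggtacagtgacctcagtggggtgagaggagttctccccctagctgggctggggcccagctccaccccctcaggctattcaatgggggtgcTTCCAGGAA
Samm50: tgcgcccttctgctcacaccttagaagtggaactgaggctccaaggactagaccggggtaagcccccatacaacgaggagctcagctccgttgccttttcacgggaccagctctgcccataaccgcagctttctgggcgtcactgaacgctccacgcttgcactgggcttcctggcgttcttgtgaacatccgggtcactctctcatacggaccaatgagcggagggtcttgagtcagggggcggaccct
Furin: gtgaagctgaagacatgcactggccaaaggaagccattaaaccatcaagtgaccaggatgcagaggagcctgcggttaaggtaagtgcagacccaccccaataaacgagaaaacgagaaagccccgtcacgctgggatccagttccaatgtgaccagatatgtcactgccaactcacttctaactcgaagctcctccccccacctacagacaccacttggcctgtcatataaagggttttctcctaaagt
The Gfap window held 1 match, TTCCAGGAA, which spans the start itself, from base -2. Among all 32817 RefSeq windows of 300 bases, searched on both strands, 8.29% held TTCNNNGAA. Of the 16 separated genes 9 had a window, 16 windows in all, and the only other window with the letters was that of Bclaf1, which was lower in Gfap-on cells and held 2 matches. The AP-1 letters TGANTCA (7.81% of all windows) were in 3 of the 16 windows, that of Samm50 included, and TATAAA (13.6% of all) also in 3, the Furin window shown included. Over all 300 bases the Gfap window had 3 CpG, that of Samm50 19, that of Furin shown here 7 and the window at the other Furin start 51, beside a median of 7 over all windows. These matches are letters only and say nothing of binding.

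Samm50, a subunit of the machinery that inserts beta-barrel proteins into the outer mitochondrial membrane, was the most widely separated gene after Gfap. It read 30724, 29479, 19584 and 11652 in the Gfap-on cells of 8 weeks against 2207 in cell 1, and 11019 in A3 against 104, 342, 171 and 704 in the Gfap-off cells of 25 weeks. The differences were 3.44 at 8 weeks and 3.46 at 25 weeks, and the smaller of the gaps between nearest cells was 2.40. All Gfap-on cells of either age exceeded all Gfap-off cells, and in WT cells it ran from 215 to 8409 with a median of 729.

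Furin, the convertase that cleaves many secreted precursors into active growth factors and receptors, read 5280, 9790, 14351 and 3272 in the Gfap-on cells of 8 weeks against 37 in cell 1. At 25 weeks it read 3026 in A3 against 242, 242, 1322 and 301. It was on in all 5 Gfap-on cells and in no Gfap-off cell, with differences of 2.85 and 1.60, and no WT cell exceeded 87. Tmem159, which encodes a protein of lipid droplet assembly, read 12771, 4507, 4074 and 9837 against 338 in cell 1, and 9878 in A3 against 3209, 2699, 3284 and 83. It was on in 3 of 4 Gfap-off cells of 25 weeks, and with both ages together the lowest Gfap-on cell, at 4074, still lay above the highest Gfap-off cell, at 3284 (within ages 2.74 and 1.75). In WT cells it ran from 11 to 12754 with a median of 325.

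**Figure D3:**
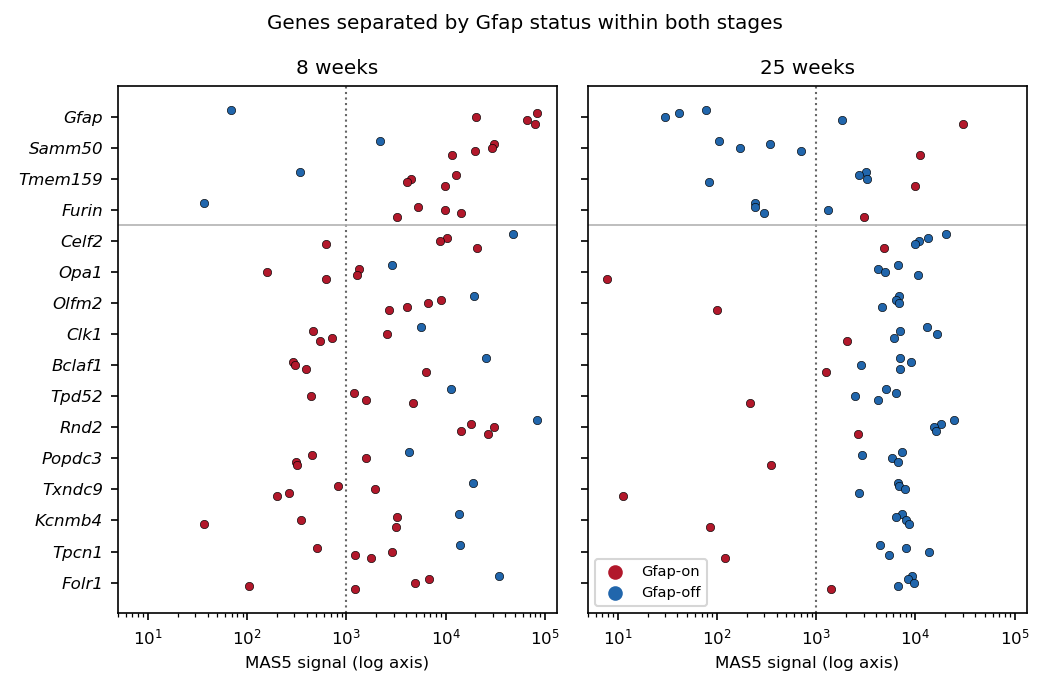
MAS5 signal (log axis) of the 16 genes separated within both ages, 8 weeks on the left and 25 weeks on the right, each point 1 cell, red for Gfap-on and blue for Gfap-off, with the dotted line at the floor of 1000. Above the grey line red points lie to the right of blue ones, and below it to the left, in both panels.

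Among the genes separated downward, Folr1, Tpcn1 and Kcnmb4 had the widest gaps, and each encodes a membrane protein. Folr1, the folate receptor, read 34295 in cell 1 against 6749, 4905, 106 and 1233 in the Gfap-on cells, and 9240, 8469, 9576 and 6701 in the Gfap-off cells of 25 weeks against 1416 in A3. The differences were -3.80 and -2.64, with the smaller gap at 2.24. Kcnmb4, an auxiliary subunit of the large-conductance calcium-activated potassium channel, read 13585 in cell 1 against 3272, 351, 36 and 3176, and 7368, 6378, 8028 and 8556 against 85 in A3 (-2.93 and -2.94). The lowest Gfap-off cell, at 6378, thus lay above the highest Gfap-on cell, at 3272.

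Tpcn1, a cation channel of endosomes and lysosomes, read 13957 against 512, 2914, 1212 and 1764 at 8 weeks and 4382, 7975, 13578 and 5364 against 122 at 25 weeks (-3.25 and -2.71). Rnd2 was high in all cells but still separated, at 83846 in cell 1 against 14263 to 31030 and 15271 to 24398 against 2645 in A3 (-1.93 and -2.70). Popdc3, a membrane protein that binds cyclic AMP, read 4310 against 312 to 1590 and 2898 to 7362 against 348. With both ages together Kcnmb4, Tpcn1 and Popdc3 did not overlap between the 5 Gfap-on and 5 Gfap-off cells, and Folr1 overlapped by 1 cell, 6749 in cell 2 against 6701 in A5.

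Bclaf1, Clk1 and Celf2 act on RNA processing and were lower in Gfap-on cells of both ages. Bclaf1 read 25268 in cell 1 against 291, 301, 393 and 6342, and 6985, 9130, 2827 and 7012 against 1264 in A3 (-4.66 and -2.47). Clk1, a kinase of splicing factors, read 5696 against 460, 2577, 722 and 542, and 13088, 7038, 16587 and 6036 against 2065 (-2.51 and -2.22). Celf2, an RNA-binding splicing regulator, read 47563 against 627 to 20804, and 10019 to 20366 against 4788 (-2.31 and -1.34). The list of 38 measured splicing and RNA-binding genes was called in both directions. At 8 weeks 3 were higher and 5 lower, beside 4.29 and 6.88% of all genes, and at 25 weeks 7 higher and 3 lower, beside 9.26 and 4.94%.

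Opa1, the dynamin-like protein that fuses inner mitochondrial membranes, read 2852 in cell 1 against 1339, 160, 1269 and 623, and 6693, 4183, 4987 and 10741 against 8 in A3. It was on in all 5 Gfap-off cells and in no Gfap-on cell. Txndc9, a thioredoxin-like partner of the CCT chaperonin, showed the same split, at 19035 against 199 to 1962 and 2722 to 7785 against 11. Tpd52, a protein of vesicle traffic, read 11401 against 445 to 4742 and 2458 to 6309 against 217, and Olfm2, a secreted glycoprotein, 19311 against 2710 to 8982 and 4649 to 6910 against 100. In these 4 genes A3 lay under the floor of 1000, so its distance from the other cells is a lower limit.

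Genes on in all 5 cells of a group and in no cell of the other were few. Besides Gfap, they were Furin, Eif5b and Rmdn3 on the Gfap-on side and Opa1, Popdc3, Txndc9, Ankrd40, Fkbp9 and Ppt1 on the Gfap-off side, and 295 genes were on in all 10 cells. Eif5b, which joins the ribosomal subunits at the start of translation, read 8318, 3783, 3900, 15723 and 2963 in the Gfap-on cells and 292, 42, 44, 1994 and 479 in the Gfap-off cells. In WT cells it reached 7516, with a median of 5077. It lies 715 bases from Txndc9 on chromosome 1 of GRCm38.p6 (Txndc9 ends at 37997294 and Eif5b starts at 37998010), and the neighbours thus ran opposite ways across the 10 cells. Rmdn3, which tethers mitochondria to the endoplasmic reticulum, read 7637, 5830, 2024, 3563 and 6459 against 1139, 547, 1693, 314 and 184. In WT cells it reached 15871, with a median of 535.

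Across both ages together 755 genes were higher (4.15%) and 1031 lower (5.67%), and the 5 Gfap-on cells did not overlap the 5 Gfap-off cells in 19 genes upward (0.104%) and 25 downward (0.137%). After Gfap the largest pooled difference among the 19 was that of A2m, a broad inhibitor of secreted proteases. A2m read 36790, 8432, 20007 and 1571 against 561 in cell 1, and 29622 in A3 against 512, 62, 18 and 75, a pooled difference of 4.32 and within-age differences of 3.70 and 4.89. It reached at most 163 in WT cells. Only cell 8, at 1571, kept it from a 2-fold gap within 8 weeks, and without cells 7 and 8, which carried messages of other cell types, it was among the genes set apart by 2-fold at both ages.

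Plec, the plectin linker that ties intermediate filaments to each other and to the membrane, read 29456, 37617, 24924 and 11525 against 283 at 8 weeks, and 9659 in A3 against 3718, 3258, 7512 and 103. The differences were 4.76 and 1.47, all Gfap-on cells exceeded all Gfap-off cells, and no WT cell exceeded 1192. Of the 17 measured intermediate filament and linker genes it was the only one besides Gfap called higher at both ages, beside 1.01% of all genes. Vim, the filament protein that MGCs always make, read 18361 to 76920 in the Gfap-on cells and 37864 to 45861 in the Gfap-off cells, and Krt18, a simple-epithelium keratin, was highest in the Gfap-off cell 1, at 79304 against 1410 to 4943 in the others of that age and at most 139 at 25 weeks.

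Serpina3n, a serine protease inhibitor and a marker of reactive astrocytes, read 25344, 17170, 22401 and 4820 against 4054 in cell 1, and 25840 in A3 against 6754, 3794, 38 and 105. The differences were 2.27 and 3.73, but the groups overlapped across ages because cell 8 lay under A1. In the 5 WT cells it was at most 151, so that 3 of the 5 Gfap-off Rhod-ko cells, cell 1, A1 and A2, lay far above every WT cell with Gfap nearly absent.

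Of the other upward genes without overlap, Atp5e and Rnf10 passed the call at 8 weeks only and Col16a1 at both ages. Atp5e, a small subunit of ATP synthase, read 39393 to 57589 in the Gfap-on cells of 8 weeks against 2834, but 5033 in A3 against 671 to 4564, a within-age difference of 4.06 and then only 0.70. Col16a1, a minor collagen, read 1210 to 12429 against 244 and 6978 against 87 to 425 (2.57 and 2.80). Rnf10, a RING finger protein, read 1420 to 8077 against 557 and 1470 against 60 to 514 (2.34 and 0.56). In WT cells Atp5e reached 7240, Col16a1 3898 and Rnf10 16173, with medians of 232, 210 and 764. Downward, Tmco1, a calcium channel of the endoplasmic reticulum, Thoc7, of the mRNA export complex, the clock repressor Nr1d2 and the zinc finger factor Zfp148 did not overlap. At 8 and at 25 weeks their differences were -1.65 and -3.12 for Tmco1, -0.78 and -2.50 for Thoc7, -2.24 and -1.08 for Nr1d2, and -3.19 and -1.91 for Zfp148.

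Of the wider gliosis program, 1 gene was called higher and 1 lower at both ages, beside 1.01 and 0.967% of all genes. Of 35 measured reactive gliosis genes other than Gfap, 4 were higher and 5 lower at 8 weeks, beside 4.29 and 6.88% of all genes. At 25 weeks 10 were higher and 1 lower, beside 9.26 and 4.94%. The median difference was 0 at both ages, as over all genes measured. Serpina3n was the only one called higher at both ages and Lgals3, a galectin of reactive glia, the only one called lower at both (3595 against 47 to 2069, and 30 to 11300 against 11). The genes higher in Gfap-on cells at 8 weeks included the calcium-binding S100a6 (10582 to 32818 against 4394) and Tgfb2 (6269 to 16120 against 3774), which were not higher in A3 (-0.42 and -0.12).

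The gliosis genes higher in A3 included Lcn2, Steap4 and Gap43. Lcn2, an iron-trafficking acute-phase protein, read 25996 in A3 against 3434, 6, 6 and 8, and Steap4, a metalloreductase, 5260 against 32, 30, 2756 and 47. Gap43, a protein of growing axons that was also counted among the ganglion cell markers, read 9066 against 2918, 1670, 4190 and 183. In the Gfap-on cells of 8 weeks Steap4 stayed at 301 to 485 and Lcn2 at 17 to 3219, so cells 2, 3 and 8 had abundant Gfap with neither gene on. Timp1, a metalloprotease inhibitor of gliosis, was on in cell 2 alone, at 19151, and at most 256 in the other 9 cells.

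The metallothioneins Mt1 and Mt2, which bind zinc and copper, were higher in every cell of 8 weeks than in any of 25 weeks. Mt1 read 320242 in the Gfap-off cell 1, inside the range of 141008 to 659741 of the Gfap-on cells of that age, and 30980 in A3 beside 15131 to 41011. Its difference was 3.99 pooled, 0.03 at 8 weeks and 1.01 at 25 weeks. Mt2 read 213266 in cell 1 beside 134326 to 392459, and 28615 in A3 beside 178 to 45051, with differences of -0.12 at 8 weeks and 2.18 at 25 weeks, where A1 lay above A3. Cp, the ferroxidase ceruloplasmin, was on in all 10 cells (7534 to 20020), as was Osmr, the oncostatin M receptor (2189 to 20348).

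**Figure D4:**
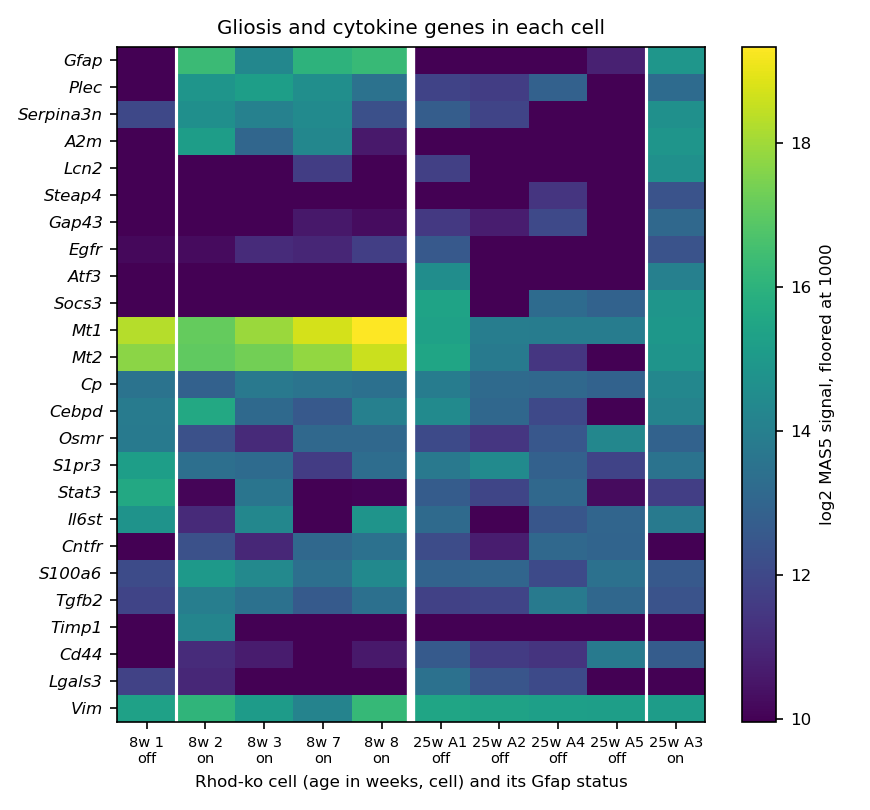
Heat map of log2 MAS5 signal, floored at 1000, for Gfap, Vim and 23 genes of gliosis and cytokine response (rows) in the 10 Rhod-ko cells (columns, with Gfap status), the wide white line parting 8 weeks from 25 weeks. The rows of Plec, Serpina3n and A2m are brighter in the Gfap-on columns of both ages, and those of Stat3, Mt1 and Socs3 are not.

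The cytokine pathway that is known to act on Gfap gave calls in both directions. Of 26 measured genes of gp130 cytokines, receptors, kinases, Stat3 and its brakes, 1 was higher and 4 lower at 8 weeks, beside 4.29 and 6.88% of all genes, and 4 higher and 3 lower at 25 weeks, beside 9.26 and 4.94%. Stat3 itself read 50715 in the Gfap-off cell 1 against 1081, 12340, 611 and 1055 in the Gfap-on cells, and 3371 in A3 beside 6548, 3849, 9016 and 1202 (-5.57 and -0.57). The shared receptor subunit Il6st read 28308 in cell 1 against 665 to 29003, and 14085 in A3 against 872 to 9380. Message level says nothing of Stat3 phosphorylation, which arrays do not measure.

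Cntfr, the receptor for ciliary neurotrophic factor, had opposite patterns at the 2 ages. It read 5002, 2069, 8932 and 11367 in the Gfap-on cells of 8 weeks against 238 in cell 1 (2.74), and 467 in A3 against 4482, 1696, 8917 and 8102 (-2.59). No cell overlapped within either age. Socs3, the feedback inhibitor that Stat3 induces, stayed at 202 to 706 in all 5 cells of 8 weeks and read 29297 in A3 beside 43245, 95, 9678 and 7777, so the highest cell, A1, was Gfap-off.

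Immediate early and acute stress genes were called higher in A3 in 14 of 34 measured members and lower in none, beside the 9.26 and 4.94% of all genes. At 8 weeks 2 were higher and 3 lower, beside 4.29 and 6.88%, and pooled 1 was higher and 9 lower, beside 4.15 and 5.67%. The number on per cell was 21 in A3 but 26 in A1 and 18 in A4, both Gfap-off, 11 in A2, 7 in A5 and 4 to 7 in the cells of 8 weeks. Atf3, an injury-induced transcription factor, read 16856 in A3 and 24230 in A1 and at most 210 in the other 8 cells. The level of these genes thus did not sort the cells of 25 weeks by Gfap.

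Several lists had more members called higher pooled than within either age. The part of age, array quality or Gfap in this was not tested. The pooled comparison had 20 higher and 4 lower among 44 measured cytosolic ribosomal proteins (median difference 0.81), beside 4.15 and 5.67% of all genes. At 8 weeks 7 were higher and 4 lower, beside 4.29 and 6.88%. At 25 weeks 1 was higher and 3 lower, beside 9.26 and 4.94% (medians -0.0036 and 0). In 22 of the 44 the median of the cells of 8 weeks was at least 2-fold that of 25 weeks, against 4 the other way, beside 4.16 and 7.33% of all genes. For S100 proteins the pooled counts were 5 higher and 0 lower of 13, and within ages 2 and 1, then 1 and 0. S100a1 was highest in the Gfap-off cell 1, at 256132 against 67326 to 95368.

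Respiratory chain subunits had more higher than lower calls pooled, and about as many of each within ages. Complexes II to V with cytochrome c gave 13 higher and 4 lower of 38 pooled, beside 4.15 and 5.67% of all genes. They gave 8 and 7 at 8 weeks, beside 4.29 and 6.88%, and 3 and 4 at 25 weeks, beside 9.26 and 4.94%. Complex I gave 9 higher and 4 lower of 34, then 5 and 5, and 4 and 4. At 8 weeks both directions were thus called more often in these lists than over all genes. Called lower at both ages were Ndufb8 (58032 against 154 to 50593, and 6894 to 15851 against 1509), Ndufa10 (-1.89 and -2.07), Uqcr11 (-1.44 and -1.37) and Atp5pb (-1.50 and -1.08), and none of either list was higher at both. Over all genes 0.967% were lower and 1.01% higher at both ages. Uqcr11, a complex III subunit, was higher in the pooled comparison (1.78) and lower within each age.

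**Figure D5:**
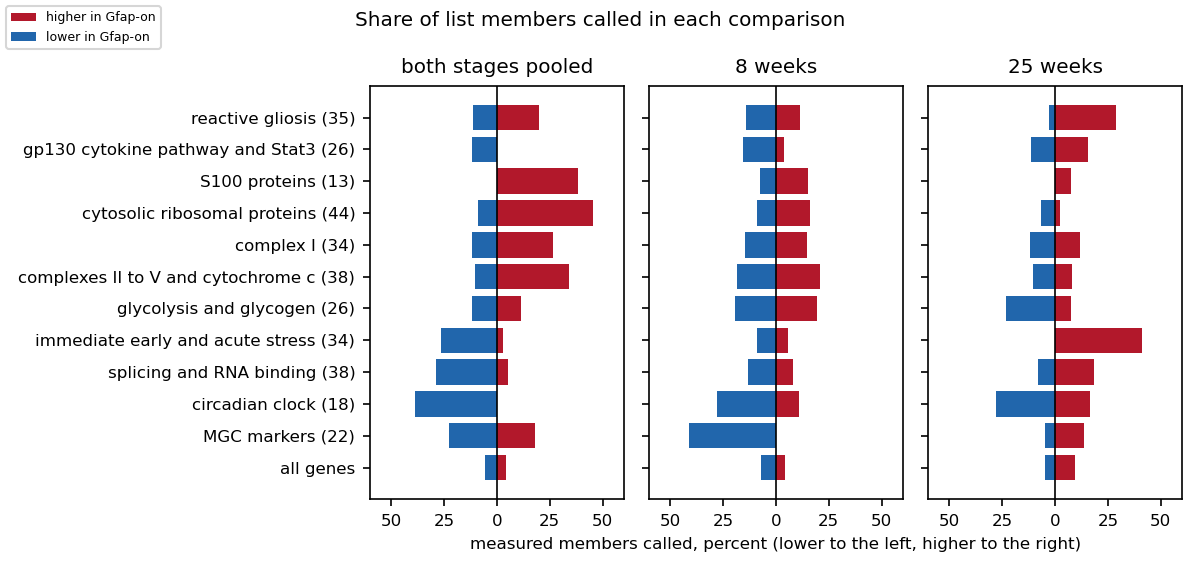
Percent of measured list members (number in brackets) called higher (red, to the right) or lower (blue, to the left) in Gfap-on cells, pooled and within each age, with all genes in the bottom row. For cytosolic ribosomal proteins the pooled 20 of 44 higher become 7 at 8 weeks and 1 at 25 weeks, and for immediate early and acute stress genes 14 of 34 are higher at 25 weeks.

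Glycolysis and glycogen genes were 5 higher and 5 lower of 26 at 8 weeks, beside 4.29 and 6.88% of all genes, and 2 and 6 at 25 weeks, beside 9.26 and 4.94%. Of these, the phosphofructokinase genes Pfkm (-2.12 and -2.74) and Pfkp (-1.85 and -1.44), which encode the committed enzyme of glycolysis, were lower at both. Pfkm read 9317 in cell 1 against 594 to 7579, and 5350 to 8392 against 134 in A3. Circadian clock genes were 0 higher and 7 lower of 18 pooled, beside 4.15 and 5.67% of all genes. They were 2 and 5 at 8 weeks and 3 and 5 at 25 weeks, with Nr1d2 and Per1 (-1.52 and -1.18) lower at both. In 8 of the 18, however, the median of 25 weeks was at least 2-fold that of 8 weeks. The reverse held in 0, beside 7.33 and 4.16% of all genes.

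Motor and actin genes gave both directions, Klc1, a kinesin light chain (3.94 and 1.62), and Dctn4 (3.70 and 1.41) higher, Dctn1 (-2.48 and -1.56) and the membrane linker moesin, Msn (-1.18 and -2.62), lower. Klc1 lost its direction at 25 weeks without A1 or without A5, as A2 and A4 lay at 16094 and 10322 beside 9904 in A3. Other members called higher at both ages were Rps2 (1.93 and 2.02), Ppp2ca, a phosphatase catalytic subunit (1.69 and 1.98), the antiproliferative Btg1 (1.28 and 2.88), the sterol sensor partner Insig1 (1.06 and 1.30) and the engulfment receptor Megf10 (1.41 and 1.10). Called lower at both were the placental growth factor gene Pgf (-4.35 and -1.86) and the interferon-induced Ifi27 (-4.15 and -2.26) and Oasl2 (-1.18 and -2.90). So were the galectin-binding Lgals3bp (-1.92 and -2.32) and the peroxiredoxin Prdx4 (-2.11 and -2.39). The same held for the fatty acid elongase Elovl5 (-1.59 and -2.47) and the proton pump subunit Atp6v1g1 (-2.02 and -1.05). These calls are of medians. In all these motor, actin and other members but Rps2, Oasl2 and Msn, the cells overlapped or met at the floor within 1 age or both. Prdx4, for example, read 38078 in the Gfap-on cell 2 against 11005 in cell 1.

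The genes that the study's text names beside Gfap were mostly present in both groups. Of 27 measured, 3 were higher and 5 lower at 8 weeks, beside 4.29 and 6.88% of all genes. At 25 weeks 7 were higher and 2 lower, beside 9.26 and 4.94%. Only Plec was higher at both and only Lgals3 lower at both, beside 1.01 and 0.967% of all genes. That list was drawn up from these same cells and is no independent evidence. The study scored association with Gfap across all its cells, WT and rd1 included, and not within Rhod-ko alone. Sod1, an antioxidant enzyme, read 107377 in cell 1 inside the 54681 to 114583 of the Gfap-on cells, and 36972 in A3 inside the 34192 to 45278 of the others. Cebpd, a transcription factor of the acute phase, read 15009 in cell 1 beside 6179 to 49680, and 18429 in A3 beside 89 to 22225.

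All 10 cells carried the message of MGCs, with 18 to 21 of 22 marker genes on in 9 cells and 15 in cell 8. Glul, the glutamine synthetase of glia, read 26050 to 69192, and Rlbp1, the retinaldehyde carrier of MGCs, 38972 to 176910. At 8 weeks 9 of the 22 were lower in the Gfap-on cells than in cell 1 and 0 higher, beside 6.88 and 4.29% of all genes. At 25 weeks 1 was lower and 3 higher in A3, beside 4.94 and 9.26%. Without overlap at both ages 5 markers were lower, beside 0.495% of all genes. Mlc1, a glial membrane protein, was the widest, at 52634 against 6154 to 28636 and 14452 to 22994 against 8621. Dkk3 was 121001 against 39191 to 93509 and 35559 to 43745 against 33535. At the closer age the nearest cells lay 1.68-fold apart for Mlc1, but only 1.09-fold for Glul, 1.06-fold for Dkk3 and 1.05-fold for Rlbp1. Apoe, the lipid carrier, read 196691 in cell 1 against 9543 to 24322, and 2033 in A3 against 20 to 1702, opposite directions at the 2 ages.

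Messages of other cell types lay in cells of both groups. Of 19 measured rod markers 10 were on in cell 7 and 11 in cell 8 against 1 to 5 in the other 8 cells, with the rod transducin gene Gnat1 at 57659 and 54424 and recoverin, Rcvrn, at 92081 and 45343. In cell 1 the rod arrestin Sag was also on, at 61070. Of 18 microglia and macrophage markers 7 were on in cell 7 against 0 or 1 elsewhere, with the receptor Csf1r at 118151 there and at most 706 in the other 9, and Ctss at 7069 in A3. Bipolar markers were on in 3 to 5 of 11 in each cell of 25 weeks, A3 included, and in 0 to 2 at 8 weeks. Amacrine markers were on in 5 of 11 in the Gfap-off cell A2 and in at most 2 elsewhere. Ganglion cell markers were on in 4 of 11 in A3, Gap43 included, and in at most 3 elsewhere. Vascular markers were on in 1 to 3 of 15 and astrocyte markers, Gfap included, in 2 to 5 of 9 in every cell. Of all 18194 genes, 1970 to 2363 were on in a cell of 8 weeks and 2670 to 3123 in a cell of 25 weeks. A few markers on in a list are thus not by themselves evidence of other cell types. The part of these cells or their RNA in the differences was not tested.

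In cells the grouping did not use, the genes behaved variously. With a near-identical pair of rd1 arrays counted as 1 cell, 9 of 17 cells outside Rhod-ko had Gfap on, 8 of them rd1 and 1 WT, and 8 had it off, 4 WT, 3 congenic FVB and 1 rd1, so Gfap status there cannot be told apart from genotype, strain and age. The WT cell with Gfap on is the one that passed through the third Gfap probe set alone. Serpina3n was on in 5 of the 9 and 0 of the 8, and Tmem159 in 4 and 1. A2m was on in none of the 17, so its strong signals were seen in Rhod-ko cells only. Furin was on in 3 of 9 and 2 of 8, Samm50 in 3 of 9 and 4 of 8, and Plec in 4 of 9 and 3 of 8. Of the genes lower in Gfap-on Rhod-ko cells, Folr1 was on in 7 of 9 and 0 of 8, Rnd2 in 7 and 2, and Olfm2 in 6 and 1, the opposite direction, while Bclaf1 was on in 1 of 9 and 6 of 8. Among the 8 rd1 cells with Gfap on, without the WT cell, Tmem159 was on in 3 and Folr1 in 6. Of the 3 genes separated upward besides Gfap, 2 were on more often and 1 less often in the Gfap-on cells outside Rhod-ko. Of the 12 separated downward, 8 were on more often there, opposite to their direction in Rhod-ko, and 4 less often. Over all 18194 genes 4675 were on more often, 4843 less often and 8676 equally often.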

How the data were processed

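Values were the deposited MAS5 signal intensities, on a linear scale, which the authors computed with Affymetrix MAS software and scaled so that each array's mean without its outer 2% is 500 (checked on all 28 arrays). The cDNA of each cell was made from an oligo dT primer and amplified by PCR, so signals favour 3' ends. Each array has 45101 probe sets, 34958 with 1 gene symbol, 932 with several and 9211 with none listed. Only the first kind was used (34754 matched to RefSeq by Entrez number), giving 18194 genes. Signals under 1000 were raised to 1000 before log2, and differences of medians were called at 1. Members and lists (939 of 1037 names measured) were chosen with earlier results of these data known. Named genes were those with the largest gaps or pooled differences, list members called alike at both ages, and members of the gliosis, gp130 and paper-named lists. Array depth has no count here, and the number of cells limits precision. Alternatives were 1 probe set per gene, floors of 500 and 2000, quantile or 90th percentile scaling, group means, Gfap thresholds of 1000 and 10000, omitted cells, and averaging the within-age differences. Steps were tested on simulated data. Python 3.11.15, pandas and NumPy were used. The targeted gene is not reported here.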

Additional observations from a re-analysis of the deposited data

Results flagged for a closer look

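A set of 28 named genes was examined, those with the largest gaps or pooled differences and Serpina3n. In each, the 5 Gfap-on and the 5 Gfap-off cells were searched for a cell that stood apart. Of these 56 groups, 16 had one. Chance alone marks about 1 in 20 groups, and a group with 4 cells at the floor of 1000 is always marked, so a cell counts here as apart on the floored scale only. Among Gfap-off cells the highest stood apart for Gfap (1803 in A5), Samm50 (2207 in cell 1), Furin (1322 in A4), Rmdn3 (1693 in A2), Eif5b (1994 in A4), Folr1 (34295 in cell 1), Rnd2 (83846 in cell 1), Olfm2 (19311 in cell 1) and Nr1d2 (19576 in A5), and the lowest for Thoc7 (1721 in cell 1). Among Gfap-on cells the highest stood apart for Txndc9 (1962 in cell 3), Popdc3 (1590 in cell 3), Bclaf1 (6342 in cell 8) and Tmco1 (2847 in cell 3), and the lowest for Atp5e (5033 in A3) and Serpina3n (4820 in cell 8). Cell 1 thus accounts for 5 of the 10 Gfap-off cases, and it is the only Gfap-off cell of 8 weeks.

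In 3 named genes every Gfap-on cell lay on 1 side of the Gfap-off cells at 8 weeks and on the other side at 25 weeks. Cntfr was at 2.74 and then -2.59 on the log2 scale, Apoe at -3.81 and then 1.02, and Mif, a cytokine, at 1.94 and then -0.62. Over all genes 50 went from higher to lower in this way and 209 from lower to higher. The difference between the ages was not tested.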

How the results depend on the processing

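The comparison rests on 1 Gfap-off cell at 8 weeks and 1 Gfap-on cell at 25 weeks, with no replicate of either, so the comparison of an age does not exist without that cell. No paired analysis was possible because the labels pair no cells across ages and no test was run. Age and array quality cannot be told apart, and signals near the floor carry no order. Of 146 gene counts recomputed under an alternative 120 stayed within 1.5 times the reported one.

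With a floor of 500 the counts were 1337 higher pooled, 1322 higher at 8 weeks, 1459 lower at 25 weeks, and 10 and 20 genes separated upward and downward at both ages. With a floor of 2000 they were 443 higher and 540 lower pooled, 416 higher at 8 weeks, 994 higher and 418 lower at 25 weeks, and 7 separated downward. Furin was then no longer among the separated genes, nor under quantile normalization or 90th percentile scaling. Quantile normalization left 7 separated upward and 7 downward. Leaving out a cell can only add separated genes, and gave 5 to 13 upward and 13 to 21 downward. Without cells 7 and 8 there were 1352 genes higher at 8 weeks and 27 separated upward, A2m, Serpina3n, Col16a1 and Rmdn3 among them.

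A Gfap threshold of 1000 makes A5 Gfap-on, and 1 gene was then separated upward, Arfip2, in place of the 4, with 9 downward, 1 of them among the reported 12. The 25 weeks differences turned for Tmem159 (-0.03), Plec (-0.26), Nr1d2 (0.38), Klc1 (-1.71), Dctn4 (-0.90), Ndufa10 (0.40), Btg1 (-0.40, pooled -0.084), Ifi27 (0.35, pooled 0.46), Mt2 (-1.41) and Cebpd (-1.01). A threshold of 10000 changed no cell. Averaging the within-age differences turned the pooled value of Uqcr11 (-1.41), Socs3 (0.88), Apoe (-1.39), Sag (-1.11), Mif (0.66) and S100a1 (-0.67). Quantile normalization turned pooled Sod1 (-0.40), and 1 probe set per gene turned Ankrd40 at 8 weeks (0.27). Gnat1 at 8 weeks was -1.46 without cells 7 and 8 and -1.46 to 4.31 when single cells were left out. In the same way Klc1 at 25 weeks ran from -0.060 to 3.31 and pooled Ifi27 from -2.72 to 0.33. Of 3660 values of named genes the direction turned in 28, and 207 others moved by at least the standard deviation over cells within groups. Of 1344 list counts recomputed under an alternative, 179 moved beyond 1.5 times the reported one in either direction.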
